A study of Mus musculus with 12 samples.

Results

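Glutathione metabolism was followed here through 10 genes in the whole spinal cord of mice aged 1 week, by the rows of the deposited gene tables whose gene name equals that of a member. The members were Chac1, Chac2, Ggct, Gclc, Gclm, Gss, Gsr, Gpx4, Slc7a11 and Cth, which are 10 of the 38924 genes in the files. The mutant mice carry 1 P278KY allele of Gars over a wild-type copy, and their controls are wt. Glycyl-tRNA synthetase, which loads glycine onto its tRNA, is the product of Gars, and the series is described as taken before the onset of disease. All mice share a mixed background labelled B6J;CAST, which joins C57BL/6J with the wild-derived CAST strain. The labels name no driver or tissue restriction for the allele. There were 4 groups of 3 libraries, each from a separately numbered mouse: female P278KY (mice 4, 7 and 10), male P278KY (mice 3, 5 and 13), female wt (mice 1, 2 and 14) and male wt (mice 6, 9 and 19).

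Glutathione is a tripeptide of glutamate, cysteine and glycine and the main soluble thiol antioxidant of cells. It is built in the cytosol by glutamate-cysteine ligase and then glutathione synthetase, which adds glycine, the same amino acid that Gars loads onto tRNA. Glutathione peroxidases spend it on peroxides, glutathione reductase restores it, and the CHAC enzymes cleave it to 5-oxoproline and cysteinyl-glycine. In the nervous system it protects neurons and the lipid-rich membranes of myelin, and its supply depends on cystine imported by system xc-, whose light chain is Slc7a11. Chac1 is known as a target of the integrated stress response, through ATF4 and CHOP.

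Library totals ran from 27713981 to 43219891 expected counts. Summed levels of 10 spinal cord neuron markers lay between 2300 and 2807 CPM (expected counts over library totals adjusted by TMM factors) in P278KY libraries and between 2308 and 2801 CPM in wt libraries, so the labelled tissue carried its defining markers. Tissue next to the cord varied between libraries. Skeletal muscle markers (10 genes, none at 0 in every library) summed to 70.8 to 2613 CPM in P278KY and 15.8 to 996 CPM in wt, and Schwann cell markers (8 genes) to 100.3 to 2257 CPM in P278KY and 281 to 2981 CPM in wt. Sensory ganglion markers (9 genes) summed to 90.6 to 114.6 CPM in P278KY and 91.5 to 554 CPM in wt. Meningeal and fibroblast markers (10 genes, added after the data were seen) summed to 1050 to 2339 CPM in P278KY and 684 to 3477 CPM in wt. Their medians were 1949 CPM in P278KY and 1009 CPM in wt. Both wt maxima were those of female wt 14. The next highest wt libraries were male wt 9 at 141.6 CPM for ganglion markers and male wt 19 at 1437 CPM for meningeal markers. In 2 wt libraries, female wt 14 and male wt 19, the sex marks Xist and Ddx3y went against the labelled sex, and the values by sex for Chac1, Slc7a11 and Gpx4 are therefore given with and without them. In bulk RNA such as this, fewer cells of a type and less RNA per cell cannot be told apart.

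The sequences shown are the 250 bases before the RefSeq start of the 3 members on which the results turn: Chac1, the member with the clearest genotype difference, Slc7a11, whose levels went different ways in the labelled sexes, and Gclm, whose deposited effective length was shortest in the female wt libraries. They come from RefSeq on GRCm38.p6, are written 5′ to 3′ on the gene's strand, and lie at chr2:119350992-119351241 on the plus strand for Chac1, chr3:50443614-50443863 on the minus strand for Slc7a11 and chr3:122245307-122245556 on the plus strand for Gclm. Capitals mark a match to the C/EBP-ATF element in Chac1 and Slc7a11 and to the antioxidant response element in Gclm.
Chac1: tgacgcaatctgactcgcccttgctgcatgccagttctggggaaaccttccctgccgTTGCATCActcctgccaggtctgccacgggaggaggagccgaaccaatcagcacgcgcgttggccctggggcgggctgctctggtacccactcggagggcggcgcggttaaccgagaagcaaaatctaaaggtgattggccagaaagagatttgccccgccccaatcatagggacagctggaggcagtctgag
Slc7a11: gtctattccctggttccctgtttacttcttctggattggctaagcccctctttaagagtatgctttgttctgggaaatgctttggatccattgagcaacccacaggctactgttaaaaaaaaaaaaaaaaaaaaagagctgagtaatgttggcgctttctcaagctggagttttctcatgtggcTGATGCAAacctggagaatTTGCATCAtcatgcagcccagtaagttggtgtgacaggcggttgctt
Gclm: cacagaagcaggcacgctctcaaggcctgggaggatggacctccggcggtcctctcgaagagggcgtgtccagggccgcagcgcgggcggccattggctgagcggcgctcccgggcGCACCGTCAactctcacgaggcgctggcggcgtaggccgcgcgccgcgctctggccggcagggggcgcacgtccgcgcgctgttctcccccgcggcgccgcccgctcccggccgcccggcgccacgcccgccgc

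The letters searched, on both strands, were TGATGNAA for the C/EBP-ATF element, which ATF4 binds with a C/EBP partner, TGACGTCA for the cyclic AMP response element, and TGACNNNGC for the antioxidant response element, which NRF2 binds. Promoter entries were matched for 7 of the 10 members, 10 windows in all, 4 of them for Gpx4. No entry was matched for Gclc, Gsr and Cth, so these were not searched. The C/EBP-ATF letters stood in Chac1 once, 193 to 186 bases before the start as TTGCATCA on the gene's strand, and in Slc7a11 in both orientations, as TGATGCAA 66 to 59 bases and as TTGCATCA 47 to 40 bases before the start. Of all 32851 promoter windows of this length, 3.45% hold these letters. The antioxidant letters stood in Gclm, 134 to 126 bases before the start as GCACCGTCA, and in Ggct, 174 to 166 bases before the start as GCGACGTCA, against 10.2% of all windows. None of the 10 windows held the cyclic AMP letters, which 1.55% of all windows hold. These are matches of letters and were not tested as binding sites.

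To set genes beside each other, levels per transcript length (TPM) were used, over all 12 libraries. Gpx4, the peroxidase that reduces lipid peroxides in membranes, had the highest level at 284 ± 22.9 TPM (mean ± SD, n = 12, as for the other levels in this paragraph). Next came the ligase genes Gclm at 32.9 ± 4.53 TPM, the modifier subunit, and Gclc at 26.4 ± 1.57 TPM, the catalytic subunit. Gsr (glutathione reductase) had 21.8 ± 0.881 TPM, Ggct (gamma-glutamylcyclotransferase) 21.0 ± 2.11 TPM and Gss (glutathione synthetase) 19.8 ± 2.88 TPM. These 3 levels overlapped, with Gsr above Ggct in 9 of 12 libraries and Ggct above Gss in 8 of 12. Chac2 stood at 12.4 ± 1.33 TPM, Slc7a11 at 10.4 ± 2.93 TPM and Chac1 at 7.29 ± 1.46 TPM, again without full separation, since Chac2 was above Slc7a11 in 9 of 12 libraries and Slc7a11 above Chac1 in 9 of 12. Cth, the cystathionine gamma-lyase that makes cysteine from methionine, was lowest at 3.82 ± 0.762 TPM. All other neighbours in the order were separated in all 12 libraries.

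**Figure D1:**
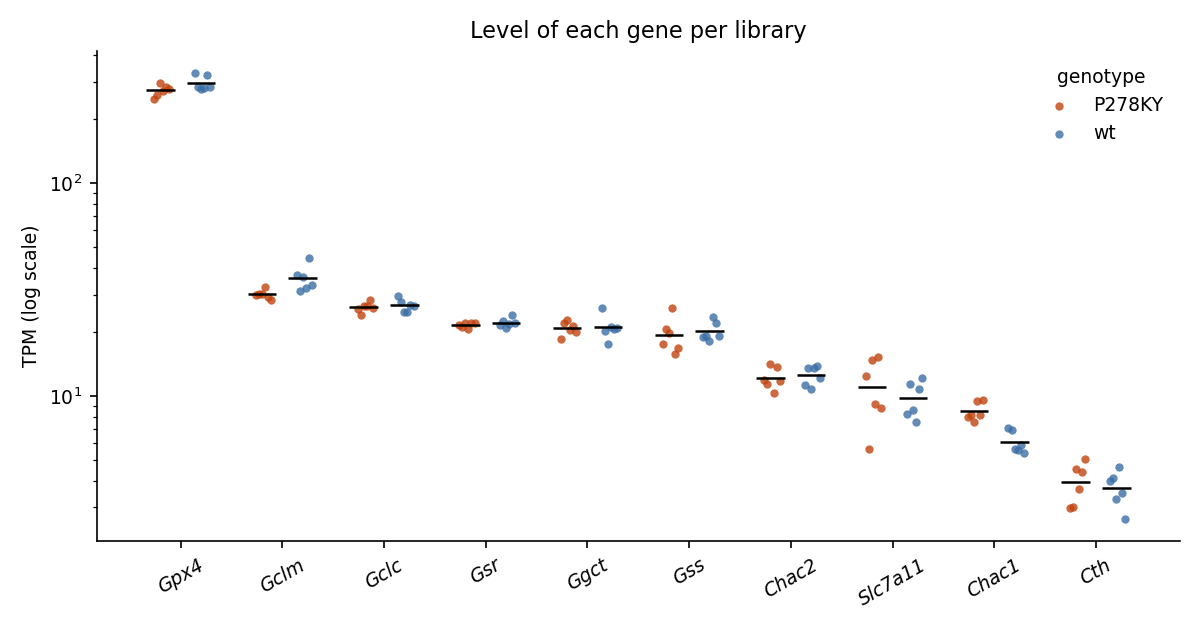
Level of each of the 10 genes in TPM on a log axis, 1 point per library, P278KY (orange) left of wt (blue), with a black line at the mean of 6 libraries. Chac1 is the gene whose 6 P278KY points all lie above its 6 wt points.

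The series compares P278KY with wt cords, and the main test was edgeR's quasi-likelihood fit of all 12 libraries, in which labelled sex was a term, adjusted over 17995 genes by the Benjamini-Hochberg method. All 10 members had enough counts to be tested, and 0 of 10 passed an adjusted p of 0.05. Over all genes there was 1 that passed, 0.00556% of those tested, while an unadjusted p under 0.05 was reached by 4.09% (2.4% higher and 1.69% lower). Among the members Chac1 alone reached an unadjusted p under 0.05 in this edgeR test. DESeq2, run as an alternative, called 1 of the 10 members, Chac1, against 0.183% of all genes (33 genes). The members' fitted log2 fold changes were above 0 for 6 and below 0 for 4, with a median of 0.02, beside a median of -0.01 and a share above 0 of 46.9% over all genes. Only the genotype fold change of Chac1 exceeded 0.22 on the log2 scale among the 10.

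Chac1 (ChaC glutathione-specific gamma-glutamylcyclotransferase; chromosome 2, 119351229 to 119354381, plus strand, GRCm38) cleaves glutathione inside the cell. Its level was 6.65, 6.16 and 6.92 CPM in female P278KY mice 4, 7 and 10 and 7.18, 8.29 and 8.22 CPM in male P278KY mice 3, 5 and 13. In wt it was 5.54, 4.83 and 4.74 CPM in females 1, 2 and 14 and 5.51, 4.89 and 4.74 CPM in males 6, 9 and 19. Every P278KY library lay above every wt library. Of all genes tested, 0.0945% (17 genes) had all 6 P278KY above all 6 wt libraries in CPM. These levels rest on 189 to 261 expected counts per P278KY library and 138 to 205 per wt library, whole numbers in all 12.

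Chac1 averaged 7.24 ± 0.858 CPM in P278KY and 5.04 ± 0.380 CPM in wt (SD, n = 6 each). The log2 fold change was 0.52 ± 0.09 (SE; 95% interval 0.32 to 0.71), a fold of 1.43. It ranked 7 by p among 17995 genes, and its edgeR adjusted p of 0.196 missed the threshold, with 6 of 6 P278KY libraries higher. DESeq2 gave the same gene an adjusted p of 0.000314. Per transcript length Chac1 was at 8.49 ± 0.862 TPM in P278KY and 6.09 ± 0.718 TPM in wt. Those groups did not overlap either, with P278KY libraries at 7.56 to 9.62 TPM and wt libraries at 5.41 to 7.05 TPM.

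Within the labelled sexes Chac1 had the same direction, and in each of them all 3 P278KY libraries were above all 3 wt libraries, as held for 7.74% of all genes in females and 5.68% in males. Female P278KY averaged 6.58 ± 0.383 CPM and female wt 5.03 ± 0.441 CPM (SD, n = 3 each), a log2 fold change of 0.39 ± 0.12 (SE; edgeR adjusted p = 0.295). Male P278KY averaged 7.90 ± 0.619 CPM and male wt 5.04 ± 0.408 CPM, a log2 fold change of 0.65 ± 0.12 (edgeR adjusted p = 0.411). In males DESeq2 gave an adjusted p of 0.00192 and in females 0.137. The test of female minus male effect, -0.26 ± 0.16 on the log2 scale, did not pass (edgeR adjusted p = 0.597). With both wt libraries of disputed sex left out, the log2 fold change was 0.47 over both sexes, 0.35 in females and 0.60 in males.

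Skeletal muscle markers differed by genotype alongside Chac1. By sign all 10 were higher in P278KY, with a median log2 fold change of 2.71, although 0 of 10 passed by edgeR and 0 by DESeq2 (6 had an unadjusted edgeR p under 0.05). Their sums had medians of 606 CPM in P278KY and 39.5 CPM in wt. In females the sums were 70.8 to 1433 CPM in P278KY and 15.8 to 61.7 CPM in wt, without overlap, and in males they were 460 to 2613 CPM in P278KY and 18.5 to 996 CPM in wt, with overlap. With the muscle level as a further term Chac1 had a log2 fold change of 0.61, with an edgeR adjusted p of 0.9998 against 0.196 in the main fit. The muscle level mostly went with genotype, so this fit cannot tell the 2 apart. With the meningeal level as a term the Chac1 log2 fold change was 0.54.

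Chac2, the second intracellular glutathione cyclotransferase, which is regarded as the housekeeping member of the pair, showed no such pattern. Its lowest, median and highest libraries were 6.17, 7.21 and 7.83 CPM in P278KY and 6.44, 7.37 and 8.25 CPM in wt. The groups overlapped, with 1 P278KY library below every wt library, and the log2 fold change was -0.01 ± 0.09 (SE; 95% interval -0.21 to 0.18). The TPM ratio of Chac1 to Chac2, computed within each library, was 0.707 ± 0.144 (0.532 to 0.922) in P278KY and 0.490 ± 0.0811 (0.412 to 0.626) in wt. In 4 of 6 P278KY libraries, those of males 3, 5 and 13 and of female 4, the ratio lay above every wt library. Female P278KY 7 and 10, at 0.532 and 0.592, lay below female wt 1 at 0.626. The ratio takes in the Chac1 difference given above and is no separate result.

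Ggct, which releases 5-oxoproline from gamma-glutamyl amino acids, ranged over 12.6, 15.97 and 17.0 CPM (lowest, median and highest) in P278KY and 13.4, 14.9 and 16.4 CPM in wt. Its log2 fold change was 0.07 ± 0.08 (SE; interval -0.10 to 0.24). Ggct is the member nearest to the mutated gene, on the minus strand of chromosome 6 (54982580 to 54992950), 45.06 kb from Gars on GRCm38. Both genotypes overlapped there, and the strain of the alleles carried around Gars by each mouse is not given in the sources used here.

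**Figure D2:**
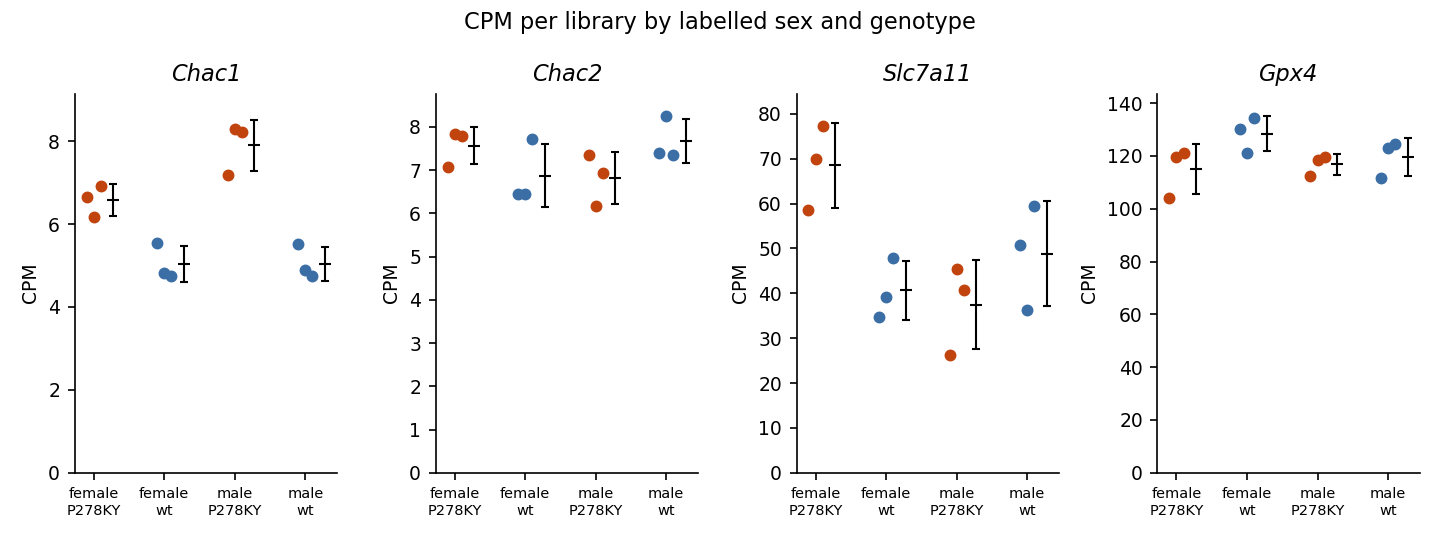
CPM of Chac1, Chac2, Slc7a11 and Gpx4 in the 4 groups, 1 point per library, with the group mean and SD of 3 libraries drawn beside the points in black. Chac1 sits at 6.16 to 8.29 CPM in P278KY and 4.74 to 5.54 CPM in wt. By labelled sex Slc7a11 is higher in female P278KY than in female wt but is not higher in male P278KY than in male wt.

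The 3 genes of synthesis overlapped between genotypes. Gclc, the catalytic subunit of glutamate-cysteine ligase, lay at 47.9, 49.5 and 54.5 CPM (lowest, median and highest) in P278KY and at 47.5, 49.2 and 52.5 CPM in wt. Its log2 fold change was 0.01 ± 0.05 (SE; interval -0.09 to 0.11), and its spread over all 12 libraries was 4.51% of the mean. Gss, which joins glycine to gamma-glutamylcysteine, lay at 17.1, 19.6 and 24.3 CPM in P278KY and at 18.98, 19.9 and 24.9 CPM in wt. The log2 fold change of Gss was -0.05 ± 0.09 (SE; interval -0.25 to 0.14), and its spread over all 12 libraries was 11.8% of the mean. Its exons share 395 bases with Acss2, 322 with Gssos1 and 385 with Gssos2 on the other strand in GENCODE M21. Its expected counts were not whole in any library. Whether counts were divided with these neighbours was not tested.

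Gclm, the modifier subunit that raises the ligase's affinity for glutamate, had 48.6, 53.5 and 60.2 CPM (lowest, median and highest) in P278KY and 48.4, 52.3 and 56.2 CPM in wt. The 3 female wt libraries lay at 48.4 to 50.7 CPM, at the low end of the 12. By counts the genotypes overlapped, with a log2 fold change of 0.04 ± 0.05 (SE; interval -0.07 to 0.15). Per length the sign was the other way, at 30.1 ± 1.43 TPM in P278KY and 35.7 ± 4.89 TPM in wt (SD, n = 6 each). A limma-trend fit on log2(TPM + 1) gave a difference of -0.23 with an unadjusted p of 0.00677 and an adjusted p of 0.966. Female wt was the group apart, at 39.2 ± 4.65 TPM, whereas female P278KY had 29.8 ± 0.391 TPM, male P278KY 30.4 ± 2.19 TPM and male wt 32.2 ± 1.03 TPM.

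The deposited effective length, which for a gene is weighted over the transcripts it is assigned to, parted the same libraries. For Gclm it was 2416, 2234 and 2024 bases in female wt 1, 2 and 14, and between 2752 and 3123 bases in the other 9 libraries. After scaling by each library's median ratio it averaged 2989 ± 65.6 bases in P278KY and 2560 ± 411 bases in wt, with an exact two-sided permutation p of 0.0325 over 924 splits and 0.260 after adjustment over the 8 members whose length varied. Female wt 14 is 1 of the libraries of disputed sex, and the other female wt libraries were also below the remaining 9. Of 3996 genes whose scaled length varied by more than 5%, 3.05% (122 genes) likewise had the 3 female wt libraries lowest. The same 3 libraries were highest for 0.425% (17 genes), so short lengths in them were not particular to Gclm. The deposited values name 6 Gclm transcripts, with lengths in GENCODE M21 of 5589 bases for the longest and 495 to 1088 bases for the others. In GENCODE M21 Gclm exons share 296 bases with the antisense gene Gm17494 and 244 with Gm6061 on the same strand. Gclm expected counts were not whole in any library, and no transcript-level file was used here.

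**Figure D3:**
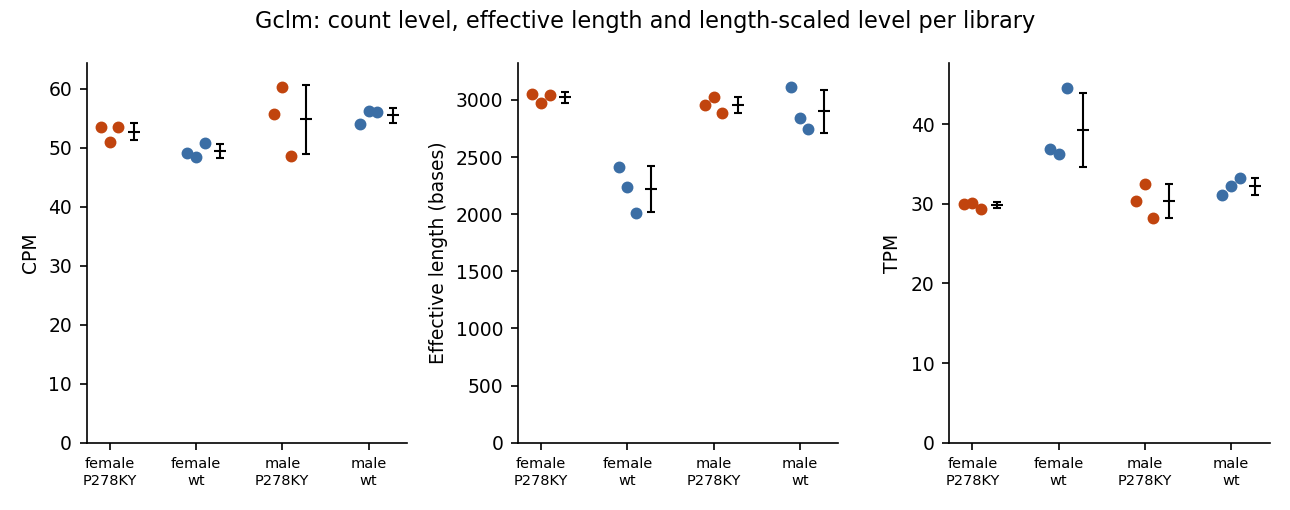
Gclm in the 4 groups as CPM, as scaled effective length in bases and as TPM, 1 point per library, with the group mean and SD in black. The 3 female wt libraries lie at the low end in CPM, 48.4 to 50.7, and have the shortest lengths, 2010 to 2411 bases, and the highest TPM, 36.2 to 44.6.

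Among genes that recycle and spend glutathione, Gsr was the steadiest member. It had 30.8, 31.1 and 32.5 CPM (lowest, median and highest) in P278KY and 29.2, 31.9 and 33.3 CPM in wt, a spread over all libraries of 3.93% of the mean. Its log2 fold change was -0.01 ± 0.04 (SE; interval -0.10 to 0.08). Gpx4 had 104, 119 and 121 CPM in P278KY and 111, 124 and 134 CPM in wt, overlapping, with a log2 fold change of -0.10 ± 0.05 (SE; interval -0.21 to 0.02). In females Gpx4 was at 115.0 ± 9.43 CPM in P278KY and 128 ± 6.78 CPM in wt (SD, n = 3 each), a log2 fold change of -0.16 ± 0.07 with an edgeR adjusted p of 0.457, and of -0.12 without both libraries of disputed sex. In males it was at 117 ± 3.90 CPM in P278KY and 119.7 ± 7.21 CPM in wt, a log2 fold change of -0.04 ± 0.07, and of -0.0092 without them.

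Cysteine is the scarce precursor of glutathione. The pair of members that supply it varied most of the 10 among the 12 mice, by 30.8% of the mean for Slc7a11 and 23.8% for Cth. Chac1 was next at 21.4%, which includes its genotype difference (11.9% within P278KY and 7.54% within wt). Cth rests on 75 to 155 expected counts per library, and these spreads were not set against those of other genes of like level. Slc7a11, the cystine-glutamate exchanger, was at 58.5, 69.9 and 77.2 CPM in female P278KY mice 4, 7 and 10, and at 26.3, 45.5 and 40.7 CPM in male P278KY mice 3, 5 and 13. In wt it was at 34.8, 39.3 and 47.9 CPM in females 1, 2 and 14 and at 50.7, 36.4 and 59.5 CPM in males 6, 9 and 19. By labelled sex all 3 female P278KY libraries were above all 3 female wt libraries, as were those of 7.74% of all genes, while the male groups overlapped. Male wt 19, whose sex marks were on the female side, was at 59.5 CPM, above female P278KY 4 at 58.5 CPM. Grouped by the sex marks, the female groups would thus overlap. All 3 male P278KY below all 3 male wt libraries, which Slc7a11 did not show, was seen for 5.87% of genes.

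Across both sexes Slc7a11 had a log2 fold change of 0.19 ± 0.24 (SE; interval -0.35 to 0.72). Female mice gave 0.75 ± 0.23 (edgeR adjusted p = 0.309). Male mice gave -0.38 ± 0.23 (edgeR adjusted p = 0.948). Omitting single libraries moved the value over both sexes to between 0.068 (without female wt 1) and 0.35 (without male P278KY 3), and also to 0.10 without female wt 2, 0.091 without female P278KY 10 and 0.32 without male wt 19. The male value moved to -0.56 without male wt 9, -0.22 without male wt 19 and -0.18 without male P278KY 3. Among the 10 members, Chac1, Slc7a11 and Gpx4 had an unadjusted p under 0.05 in females, as did 10.7% of all genes, and Chac1 alone had one in males, as did 4.91%. The female minus male difference was 1.14 ± 0.32 on the log2 scale, with an edgeR adjusted p of 0.256, so it did not pass. An unadjusted p under 0.05 was reached by 10.9% of all genes for this difference. DESeq2 called it (adjusted p = 0.0237) along with 1.55% of all genes, and also called the female effect (adjusted p = 0.0394), as it did for 1.61%. Without both libraries of disputed sex the difference was 1.11, and the log2 fold change was 0.89 in females, -0.22 in males and 0.32 over both. Schwann cell marker sums also differed between these groups, at 1482 to 2257 CPM in female P278KY, 100.3 to 779 CPM in male P278KY, 2211 to 2981 CPM in female wt and 281 to 2867 CPM in male wt. In females they were thus mostly lower in P278KY, where Slc7a11 was higher, and in P278KY both were higher in females; their part in the result was not tested. Meningeal and fibroblast marker sums were 1050 to 2009 CPM in female P278KY, 1640 to 2339 CPM in male P278KY, 684 to 3477 CPM in female wt and 941 to 1437 CPM in male wt, and with that level as a term the genotype fold change was 0.11 on the log2 scale. Slc7a11 expected counts were not whole in any library.

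Cth had 2.64, 3.78 and 4.88 CPM (lowest, median and highest) in P278KY and 2.54, 3.07 and 4.57 CPM in wt. The groups overlapped, and the log2 fold change of 0.22 ± 0.19 (SE; interval -0.19 to 0.62) had an interval that spans 0. It moved to 0.45 with the muscle level as a term, 0.082 without both libraries of disputed sex and 0.071 on log2(TPM + 1). Single omissions gave 0.12 without male P278KY 13 and 0.34 without male wt 9.

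**Figure D4:**
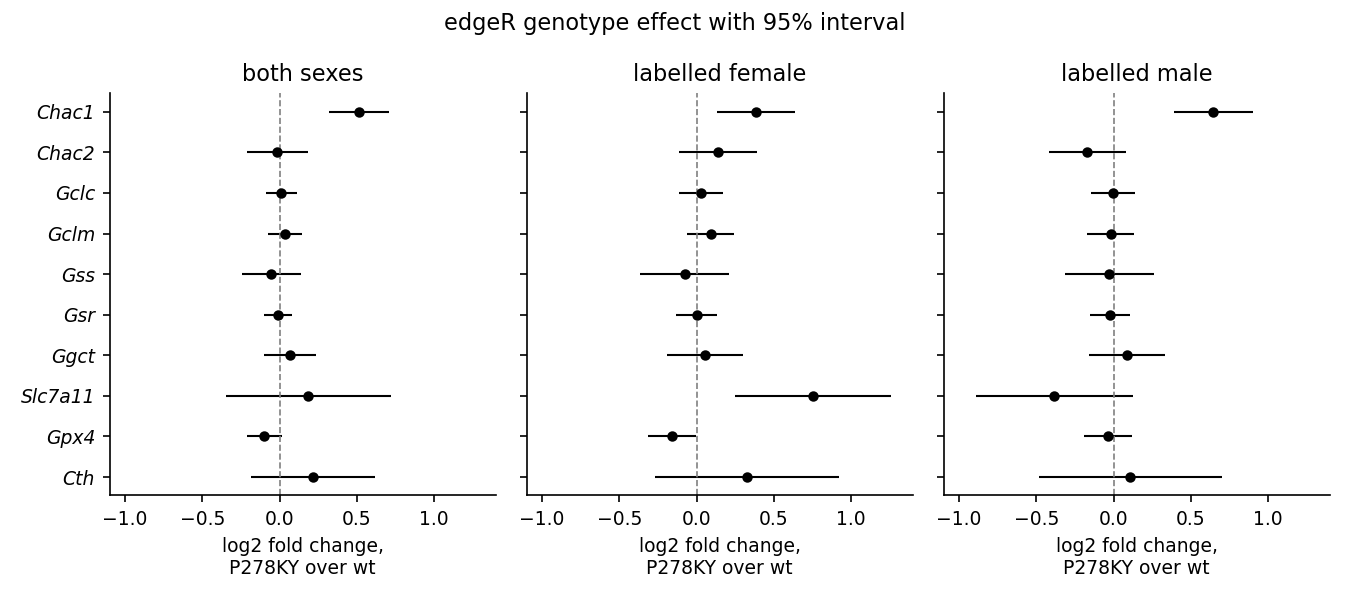
Fitted edgeR log2 fold change of P278KY over wt for the 10 genes with 95% intervals, over both sexes and within each labelled sex. The interval of Chac1 lies above 0 in all 3 panels, that of Slc7a11 lies above 0 in labelled females (0.25 to 1.26) and spans 0 in labelled males (-0.89 to 0.12), and none of these effects passed an adjusted p of 0.05.

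To ask whether the other members varied with Chac1 between mice, log2 CPM was correlated over the 12 libraries, 9 relations in all. Chac1 and Gpx4 gave the strongest, with r = -0.46 and rho = -0.58 (100000-resample permutation p = 0.130 and 0.0530, adjusted 0.677 and 0.420). Leaving out the 2 libraries farthest from the median of Chac1 gave r = -0.62. Within P278KY libraries r was 0.26 and within wt libraries -0.38, so the pooled sign was not seen within P278KY. Chac1 and Cth gave r = 0.39 and rho = 0.50 (permutation p = 0.207 and 0.0995, adjusted 0.677 and 0.420), and r = 0.17 without the 2 farthest libraries. The lowest adjusted p of the 9 relations was 0.677 for r and 0.420 for rho, so none passed. Chac1 and Slc7a11 had r = -0.01.

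Over 15453 genes with a mean above 1 CPM, the 5 whose log2 CPM followed Chac1 most closely across the 12 libraries were Cars (r = 0.92), Ddit3 (r = 0.87), Yars (r = 0.87), Aldh18a1 (r = 0.86) and Slc7a3 (r = 0.86). Cars and Yars encode the cysteinyl- and tyrosyl-tRNA synthetases, Ddit3 encodes the transcription factor CHOP, Aldh18a1 acts in proline synthesis and Slc7a3 is a cationic amino acid transporter. The pooled r includes the genotype difference, and after subtraction of the group means r was 0.25 for Cars, -0.08 for Ddit3, 0.34 for Yars, 0.20 for Aldh18a1 and 0.32 for Slc7a3. All 5 values were far below the pooled ones.

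A list of 8 genes held regulators of Chac1 and Notch genes, whose receptors CHAC1 is known to act on. By sign 6 were higher and 2 lower, with a median log2 fold change of 0.10, beside -0.01 for all genes. The 2 lower ones, named after their values were seen, were Notch1 (-0.05) and Notch3 (-0.02). Atf4, its upstream activator, averaged 93.3 ± 3.94 CPM in P278KY and 72.7 ± 6.24 CPM in wt (log2 fold change 0.36 ± 0.06 SE, edgeR adjusted p = 0.123, DESeq2 adjusted p = 2.52e-06). Ddit3 averaged 10.6 ± 0.612 CPM in P278KY and 8.05 ± 0.595 CPM in wt (0.39 ± 0.07, edgeR adjusted p = 0.285, DESeq2 adjusted p = 0.000772). For both genes all 6 P278KY libraries lay above all 6 wt libraries, as for 0.0945% of all genes. By edgeR 0 of 8 passed, and DESeq2 called these 2, against 0.183% of all genes. The list was chosen with earlier results of these data known, so these shares are no independent test.

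In the other lists, the marker lists apart, 0 genes passed by edgeR and 0 by DESeq2. An unadjusted edgeR p under 0.05 was reached there by Slc1a4, Ahcyl2 and Ptgs2 alone. These are 2 of 24 genes of cysteine supply and 1 of 21 of ferroptosis and iron handling, with 0 in the remaining lists, beside 4.09% of all genes. Of 10 other glutathione peroxidases and glutaredoxins, 2 were higher and 8 lower by sign, with a median log2 fold change of -0.05. Smallest in p were Glrx, cytosolic glutaredoxin (-0.11 ± 0.05 SE), and Glrx3 (-0.06 ± 0.05). Among 20 glutathione S-transferases 8 were higher and 12 lower, with a median of -0.03, and Gstm6 (-0.18 ± 0.11) and Mgst1 (0.15 ± 0.10) had the smallest p. The 15 genes of glutathione breakdown outside the cell and of its transport were higher for 3 and lower for 12, with a median of -0.07, led by Ggt7 (-0.08 ± 0.05), a gamma-glutamyltransferase family member, and Slc25a10 (-0.11 ± 0.09), the mitochondrial dicarboxylate carrier.

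Of 24 genes of cysteine supply and transsulfuration, 15 were higher and 9 lower by sign, with a median log2 fold change of 0.01. Slc1a4, a neutral amino acid transporter, averaged 167 ± 9.33 CPM in P278KY and 153 ± 11.7 CPM in wt (0.13 ± 0.06 SE). Ahcyl2, a relative of adenosylhomocysteinase, averaged 120.5 ± 7.10 CPM in P278KY and 111 ± 8.20 CPM in wt (0.12 ± 0.05). Neither passed after adjustment over all genes. Of 20 regulators and targets of NRF2, the antioxidant transcription factor, 5 were higher and 15 lower, with a median of -0.03, and Txn1 (thioredoxin; -0.11 ± 0.06) and Hmox1 (heme oxygenase; 0.17 ± 0.11) had the smallest p. Of 21 genes of ferroptosis and iron handling 8 were higher and 13 lower, with a median of -0.02. Ptgs2, the inducible cyclooxygenase, averaged 0.830 ± 0.244 CPM in P278KY and 0.574 ± 0.116 CPM in wt (0.53 ± 0.23), and Ireb2, an iron regulatory protein gene, had 0.09 ± 0.06.

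**Figure D5:**
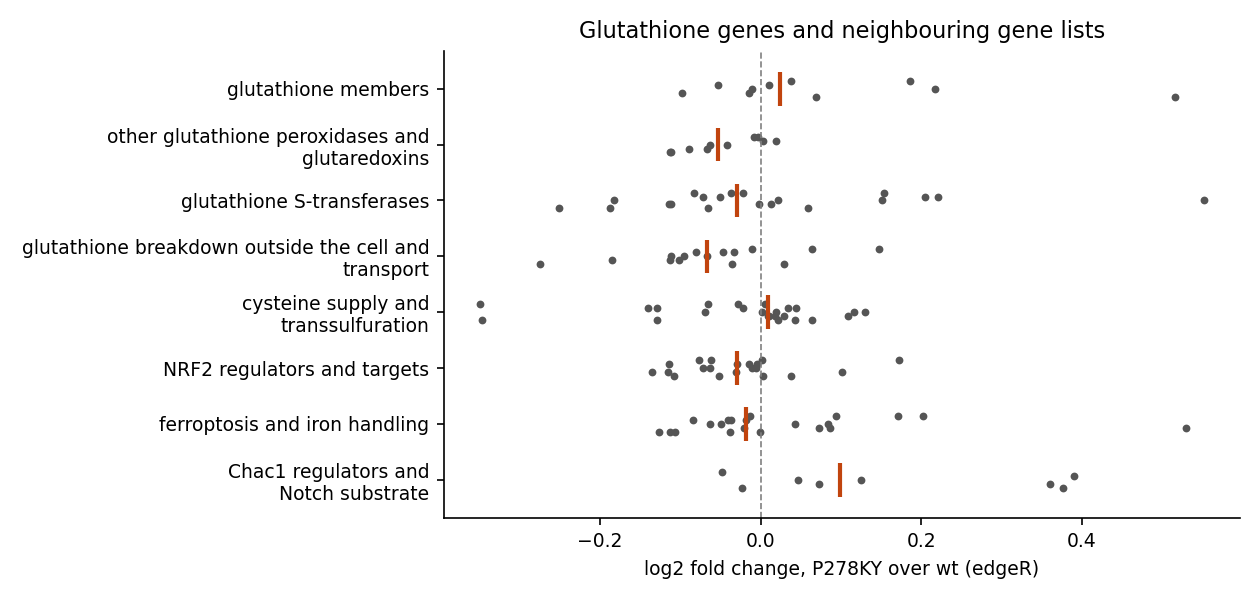
edgeR log2 fold change of P278KY over wt for each gene tested in the 10 glutathione genes and in 7 lists of related genes, 1 point per gene, with an orange line at the median of the list. Medians lie between -0.07 and 0.10, and the rightmost point among the glutathione genes is Chac1 at 0.52.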

How the data were processed

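RNA of whole spinal cord was sequenced as 12 libraries, 1 per mouse. Per the labels' protocols, poly(A) libraries were made with stranded KAPA kits and read as pairs. The submitters' processing notes name the tools Bowtie2 (2.2.0) and RSEM (1.2.12). Genome build, annotation and strand setting are not given in the sources used. Each deposited table, per the file headers, gives an expected count, a TPM value, an FPKM value and an effective length per gene. The deposited expected count is an estimate that need not be whole, so overlapping or near-identical genes can share reads. TPM values were deposited by the authors already scaled to length and depth. FPKM values were deposited too and were left out.

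Expected counts were rounded and filtered with filterByExpr, given the 4 groups, leaving 17995 genes, then scaled with TMM factors. CPM is the expected count over the TMM-adjusted total, with a prior count of 2 on the log2 scale. Tests used the robust quasi-likelihood fit of edgeR 4.0.16 in R 4.3.3, with Benjamini-Hochberg adjustment at 0.05. The genotype effect was fitted with labelled sex as a term, and effects within sexes and their difference with 1 mean per group. A standard error is the fold change over the root of its F statistic. The common biological coefficient of variation was 23.9%. Alternatives were DESeq2 1.42.0, limma 3.58.1 (voom and trend), other scalings and filters, further terms and omitted libraries. Positions come from GENCODE M21 (GRCm38) by Ensembl identifier, and promoters from RefSeq.

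Members and gene lists were chosen with earlier results of these data known. Genes were named by a rule: all members, in each list those past the threshold or else the 2 with the smallest p, and the 5 genes most like Chac1. Marker lists are given as sums. On counts simulated for the genotype comparison over 17829 genes, edgeR recovered 18%, 60%, 82% and 94% of 50 genes each changed 1.25-, 1.5-, 2- and 4-fold, with 8 false calls.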

Additional observations from a re-analysis of the deposited data

Results flagged for a closer look

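Slc7a11, the cystine-glutamate exchanger, had genotype effects of opposite sign in the labelled sexes, and the difference between them, 1.14 ± 0.32 (SE) on the log2 scale, was called by DESeq2 (adjusted p = 0.0237) but not by edgeR (adjusted p = 0.256). Leaving out each library in turn gave 0.93 to 1.31, with edgeR adjusted p between 0.189 and 0.507.

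A single library stood apart from the other 5 of its genotype for 2 genes, both in male wt 9. Gss was at 24.9 CPM there and at 18.98 to 20.9 CPM in the other wt libraries, and Cth was at 4.57 CPM there and at 2.54 to 3.26 CPM in the others. Over 20 such groups examined, chance gives about 1 in 20.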

How the results depend on the processing

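No paired analysis was possible because no mouse number is shared between groups. Chac1 kept its direction in every alternative run, with leave-one-out log2 fold changes of 0.48 to 0.56 (edgeR adjusted p 0.217 to 0.641), and was called by DESeq2 alone (0.52). For genotype, 1 gene was called over the whole table, against 33 by DESeq2, 0 with the strict filter (CPM above 1 in 6 libraries), 0 without both libraries of disputed sex, 2 with no sex term, 17 with the meningeal level as a term (chosen after seeing the data), and 1 to 3 with 1 library left out (3 in the absence of female wt 2, 2 in that of female P278KY 10). Within females 0 genes were called, against 289 by DESeq2, 1 on log2(TPM + 0.1), 11 without both disputed libraries, and 0 to 9 with 1 library left out (2 in the absence of female wt 2, 9 in that of female wt 14). Within males it was 0, against 34 by DESeq2, 1 on log2(TPM + 0.1), 4 without both, and 0 to 4 (4 in the absence of female wt 14, 2 in that of female P278KY 10). For the difference between sexes it was 0, against 279 by DESeq2, 3 with no filter, 5 without both, and 0 to 3 (1 in the absence of female wt 2, 3 in that of female wt 14). DESeq2 called 1 member in each of these 4 comparisons, where edgeR called 0. Signs turned for members whose main fold change was near 0. The median over all genes moved too, from -0.0064 in the main fit to -0.021 with library totals. It was -0.039 on log2(TPM + 1) and -0.044 on log2(TPM + 0.1). For Gclm, TPM also takes in the effective length, which was shorter in female wt. Beyond these values the cause of the turns was not tested. Gclc turned to -0.0032 with library totals, and on log2(TPM + 1) and log2(TPM + 0.1) Gclc turned to -0.028 and -0.029, Ggct to -0.0087 and -0.0089, and Gclm to -0.23 and -0.24 over both sexes, -0.38 and -0.39 in females and -0.29 and -0.30 for the difference. Without both disputed libraries Chac2 turned to 0.014 and Gsr to 0.026. With 1 library left out the range was -0.052 to 0.032 for Chac2, -0.017 to 0.028 for Gclc, -0.030 to 0.013 for Gsr, -0.11 to 0.0023 for Gss and -0.089 to 0.062 for Gclm in males; r with Chac1 ranged over -0.14 to 0.19 for Slc7a11, -0.55 to 0.062 for Gss and -0.11 to 0.49 for Gclm. Chac1 rests on 138 to 261 expected counts per library and Cth on 75 to 155, which limits their precision.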
